A study of Mus musculus with 7 samples.

Results

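The genes described here are 33 transcripts of the mouse endoplasmic reticulum (ER) folding and degradation machinery, chosen by gene symbol: the sensors of the unfolded protein response and Xbp1, the chaperones of the ER lumen, the enzymes that form disulfide bonds, the components of ER-associated degradation and a pair of translocon subunits. All 33 were found among the 29955 gene rows of the deposited table, and all 33 passed the filter of a mean of at least 10 normalized reads that left 16900 genes for testing. Their levels were measured by RNA sequencing of cultured C57BL/6 mouse embryonic fibroblasts (MEFs) of 3 genotypes, and every library was labelled p53 KO, including the controls. The p53 KO Mdm2 C462A group (2 libraries) carried a knock-in of the C462A substitution in Mdm2, a cysteine of the RING domain on which the ubiquitin ligase activity of Mdm2 depends. The p53/Mdm2 KO group (2 libraries) was labelled as knocked out for Mdm2 as well as p53, and the p53 KO group (3 libraries) was the control of both. The study title places the work in the question of what Mdm2 does without p53, through the Polycomb repressor complex. Neither the design of the knockout alleles nor whether replicates came from separate embryos, cultures or clones is given in the sources used here, so p-values measure the spread between these libraries, which may be technical.

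Proteins that enter the ER are folded by the Hsp70-type chaperone BiP (encoded by Hspa5), the Hsp90-type chaperone Grp94 (Hsp90b1) and the lectin chaperones calreticulin and calnexin, and cysteines are paired by protein disulfide isomerases. When unfolded proteins accumulate, Atf6 is cut to release a transcription factor, Ire1 (Ern1) splices the Xbp1 mRNA, and Perk (Eif2ak3) slows translation and raises Atf4. Atf6 and spliced Xbp1 switch on chaperone and degradation genes through promoter elements called ERSE, which makes these transcripts a common readout of ER stress in fibroblasts, cells with a heavy load of secreted collagen.

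Recovered totals ran from 28.5 to 41.5 M reads per library (M for reads in units of 1e6), and the values of all members except Derl3 were at least 296 normalized reads in every library. Levels are normalized reads, that is, read counts scaled by a size factor per library, and are listed in replicate order within a group, where Mdm2 C462A MEFs stands for the p53 KO Mdm2 C462A libraries. Differences are on the deposited log2 scale, which is compressed for genes with few reads. All 10 fibroblast markers had reads in every library, but several varied widely. Lum had 82.0 normalized reads in Mdm2 C462A replicate 2, 52.8 in p53/Mdm2 KO replicate 2 and 55.4 in p53 KO replicate 1, against 376 to 2156 in the other 4 libraries, and Dcn ran from 341 in p53/Mdm2 KO replicate 2 to 10017 in Mdm2 C462A replicate 2. Thy1 had 6592 in Mdm2 C462A replicate 2, against 36470.3 in replicate 1, and Pdgfra had 3556 against 16430.4. Both were also lower in p53/Mdm2 KO replicate 2 than in replicate 1, with 14002 against 37385 of Thy1 and 2651 against 10921 of Pdgfra. In the control group, p53 KO replicate 1 had 3456 normalized reads of Col1a2, against 369579.6 and 547553 in p53 KO replicates 2 and 3, and 99.1 of Thy1, against 30211 and 30830.4. Mdm2 and Trp53 reads were present in every library, with 2033 and 2887 normalized reads of Mdm2 in Mdm2 C462A MEFs, 1575 and 2334 in p53/Mdm2 KO MEFs, and 1746 to 1994 in p53 KO MEFs, and 687 to 1775 of Trp53 over the 7 libraries. Since these are gene totals that can include exons outside a deletion, they do not check the genotypes, which rest on the labels. Over all genes tested, p53 KO Mdm2 C462A replicate 2 and p53 KO replicate 1 stood apart from the other libraries most often, and values are given without them where they decide a result. Because each library is a bulk sample, fewer cells of a type and less RNA per cell cannot be told apart.

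The members were dominated by 1 library. In p53 KO Mdm2 C462A replicate 2 they took 4.78% of all reads, against 1.44% in replicate 1 of that genotype, 1.51% and 1.24% in p53/Mdm2 KO MEFs and 1.098%, 1.227% and 1.097% in p53 KO MEFs. That library was the highest of the 7 for 30 of 33 members, against 21.2% of all genes tested. It exceeded the highest of the other 6 libraries more than 2-fold for 21 of 33 members, against 2.75% of genes tested. Over all genes tested the median of that ratio was 0.731, and over the members it was 2.76. Among the other 6 libraries the highest and lowest values of a member differed by a median of 1.62-fold, and by less than 2-fold for 26 of 33. This spread was not computed over all genes tested, so it does not show that the members were steadier than other genes.

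**Figure D1:**
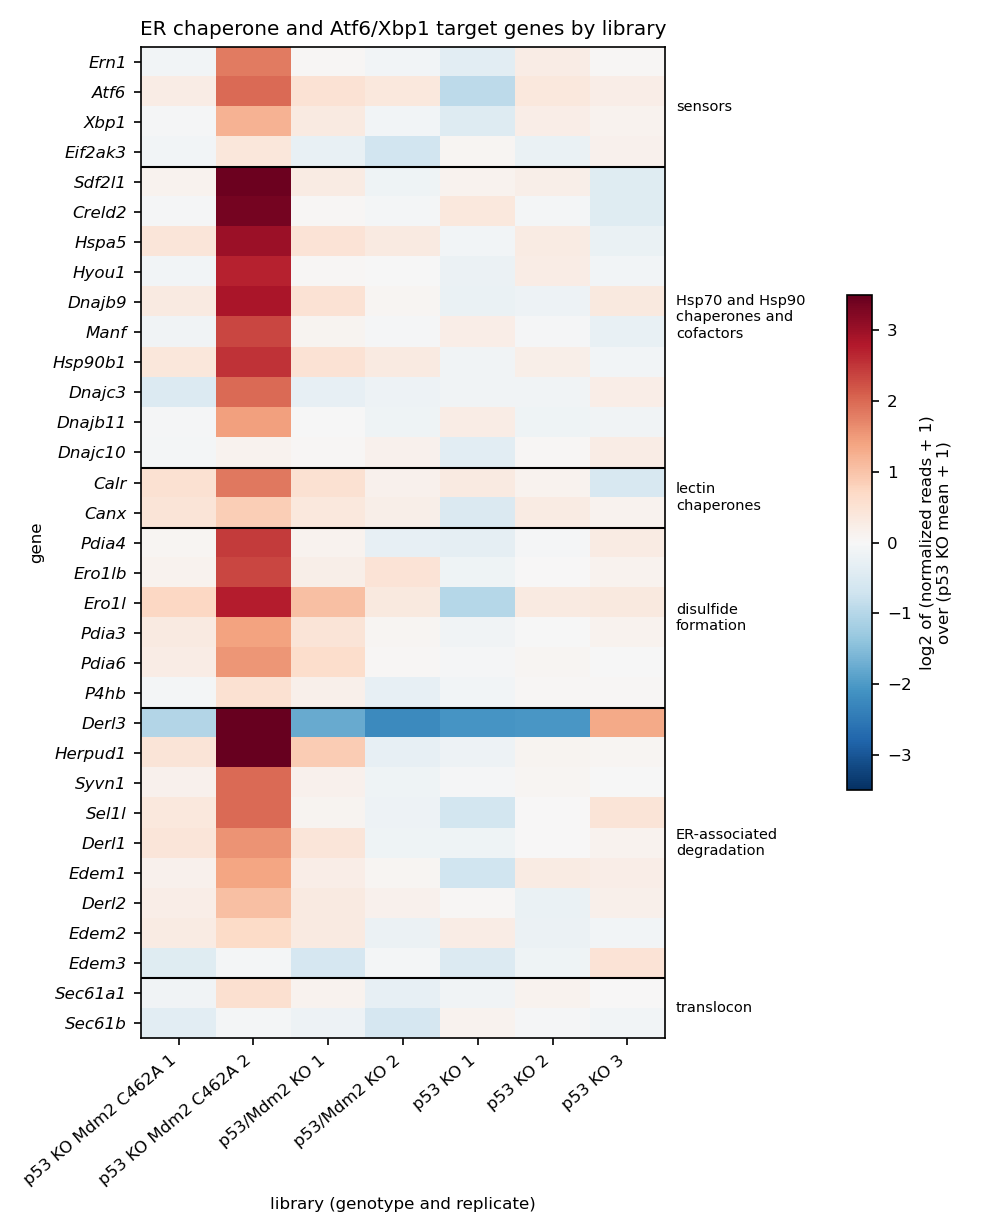
Heat map of the 33 genes (rows, grouped by role) in 7 libraries (columns, by genotype and replicate); colour is log2 of normalized reads plus 1 over the p53 KO mean plus 1, with colours saturated beyond 3.5 in either direction. The column of p53 KO Mdm2 C462A replicate 2 is the highest of the 7 for 30 of 33 genes, while replicate 1 of the same genotype lies close to the other libraries.

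No member passed the adjusted test in any comparison, and the differences given below are therefore sizes, not calls. Limma was fitted to all 16900 genes, and 0 of 33 members had an adjusted p under 0.05 in each of the 3 comparisons, against 0.0% of genes tested. Limma's voom on the recovered reads also called 0 genes in each. At an unadjusted p under 0.05, p53 KO Mdm2 C462A against p53 KO held 5 of 33 members, all higher, against 10.4% of genes tested in either direction and 4.98% on the higher side (1761 and 841 genes). They were Hspa5, Hsp90b1, Calr, Derl1 and Ero1l, and the count was 2 without any single p53 KO or p53/Mdm2 KO library. The same threshold held 1 of 33 for p53 KO Mdm2 C462A against p53/Mdm2 KO, against 2.98% in either direction and 1.2% on the higher side, and 0 of 33 for p53/Mdm2 KO against p53 KO, against 3.0% of genes tested in either direction.

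Hspa5, the gene of BiP, had 59702 and 358998 normalized reads in p53 KO Mdm2 C462A replicates 1 and 2, 62451 and 55086 in p53/Mdm2 KO MEFs, against 41535, 54603 and 37776 in p53 KO MEFs. Replicate 2 of Mdm2 C462A lay 5.75-fold above the highest other library, replicate 1 lay between the p53/Mdm2 KO libraries, and both lay above all 3 p53 KO libraries. The difference from p53 KO was 1.73 (SE 0.708, limma unadjusted p = 0.0474, adjusted p = 0.475) with both Mdm2 C462A libraries, and 0.44 without replicate 2. By itself Hspa5 took 1.02% of all reads in Mdm2 C462A replicate 2, against at most 0.169% in any other library.

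Hsp90b1, which encodes Grp94, had 73926 and 322577 normalized reads in Mdm2 C462A MEFs, 79801 and 69209 in p53/Mdm2 KO MEFs, against 51371, 64076 and 51799 in p53 KO MEFs. Here too both Mdm2 C462A libraries, and both p53/Mdm2 KO libraries, lay above all 3 p53 KO libraries. Its difference between Mdm2 C462A and p53 KO was 1.48 (SE 0.595, limma adjusted p = 0.471), and it was 0.41 without Mdm2 C462A replicate 2. Hspa5 and Hsp90b1 were also among the 5 of 33 members for which both p53/Mdm2 KO libraries exceeded every p53 KO library, with Atf6, Ero1l and Ero1lb, against 8.99% of genes tested. These differences between p53/Mdm2 KO and p53 KO were 0.41 for Hspa5 and 0.42 for Hsp90b1, each smaller than its SE.

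The 8 other genes of the chaperone class lay on both sides of Hspa5 and Hsp90b1 in this ratio. These members, and those given below by ratio or range, were chosen after their values were seen. Sdf2l1, part of a BiP complex that holds unfolded proteins, had 8887 normalized reads in Mdm2 C462A replicate 2, against 615 to 997 in the other 6 libraries. Creld2, a secreted ER stress protein, had 24491 against 1823 to 3132, a ratio of 7.82 to the highest other library. Hyou1, an Hsp70-type nucleotide exchange factor for BiP, had 70022 against 9382 to 12967. The J-protein cochaperone genes divided: Dnajb9 and Dnajc3 lay 5.15-fold and 3.35-fold above the highest other library, Dnajb11 lay 2.27-fold above it, and Dnajc10, which encodes a disulfide reductase with a J domain, lay at 0.903 of it. Manf, a secreted factor that binds BiP, had 34062 against 5666 to 7939. Over these 10 chaperone and cofactor genes the median ratio was 4.72, and 9 of 10 exceeded 2-fold.

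Because many members were high together in that library, their promoters were searched for the elements that Atf6 and Xbp1 use. RefSeq windows of GRCm38.p6 from 250 bases before to 50 bases after the start were matched for 28 of 33 members (not for Atf6, Hyou1, Manf, Derl1 and Sec61a1), and the letters were sought on both strands. ERSE was taken as CCAAT, any 9 bases, then CCACG, and ERSE-II as ATTGG, any 1 base, then CCACG; both end in the same 5 letters. The windows below show the upstream part of the promoters of Hspa5 and of the 3 further members with an ERSE that had the highest mean reads, plus Herpud1, chosen after its values were seen because it carries the other element. Capitals mark the matched element, in either orientation.
Hspa5: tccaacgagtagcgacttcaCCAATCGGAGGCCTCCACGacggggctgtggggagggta
Hsp90b1: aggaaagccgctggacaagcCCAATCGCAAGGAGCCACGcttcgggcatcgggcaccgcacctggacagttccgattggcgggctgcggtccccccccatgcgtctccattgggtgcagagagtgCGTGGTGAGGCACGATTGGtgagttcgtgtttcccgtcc
Calr: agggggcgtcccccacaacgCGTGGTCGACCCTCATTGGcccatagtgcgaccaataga
Canx: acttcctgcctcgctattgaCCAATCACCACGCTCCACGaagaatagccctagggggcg
Herpud1: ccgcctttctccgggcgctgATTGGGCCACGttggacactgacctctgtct

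These windows lie at chr2:34772005-34772063 on the plus strand for Hspa5, chr10:86705513-86705676 on the minus strand for Hsp90b1, chr8:84847055-84847113 on the minus strand for Calr, chr11:50325780-50325838 on the minus strand for Canx and chr8:94386357-94386407 on the plus strand for Herpud1. The element ended 47 bases before the start in Hspa5 and 42 bases before it in Herpud1, and Hsp90b1 held a pair of ERSE matches in opposite orientation. An ERSE stood in the windows of 10 of 28 members, against 0.119% of all 32851 windows: Derl3, Creld2, Hspa5, Hsp90b1, Ero1lb, Syvn1, Dnajc3, Calr, Pdia6 and Canx. ERSE-II stood in 2 of 28, Herpud1 and Dnajb11, against 0.0365% of windows. The core of another element, UPRE, taken as TGACGTG, stood in 1 of 28, Hspa5, against 2.01% of windows. Members were counted as genes and these shares as windows. Counted as genes, the shares among 11235 other tested genes with a window were 0.0979% for ERSE and 0.0534% for ERSE-II. For the UPRE core the share was 3.09%, near the 3.57% of the members. Known ERSE genes are part of how such a list is composed, so its share of matches is no independent finding.

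The ratio of Mdm2 C462A replicate 2 to the highest other library had a median of 3.60 over the 10 members with an ERSE and 2.03 over the 18 without, with 8 of 10 and 9 of 18 above 2-fold. The sets overlapped widely. Canx, with an ERSE, lay at 1.34, whereas Sdf2l1 and Dnajb9, without these letters in the window, lay at 8.91 and 5.15. A match describes letters, not binding, and a window without one may hold an element with a changed base or farther away.

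**Figure D2:**
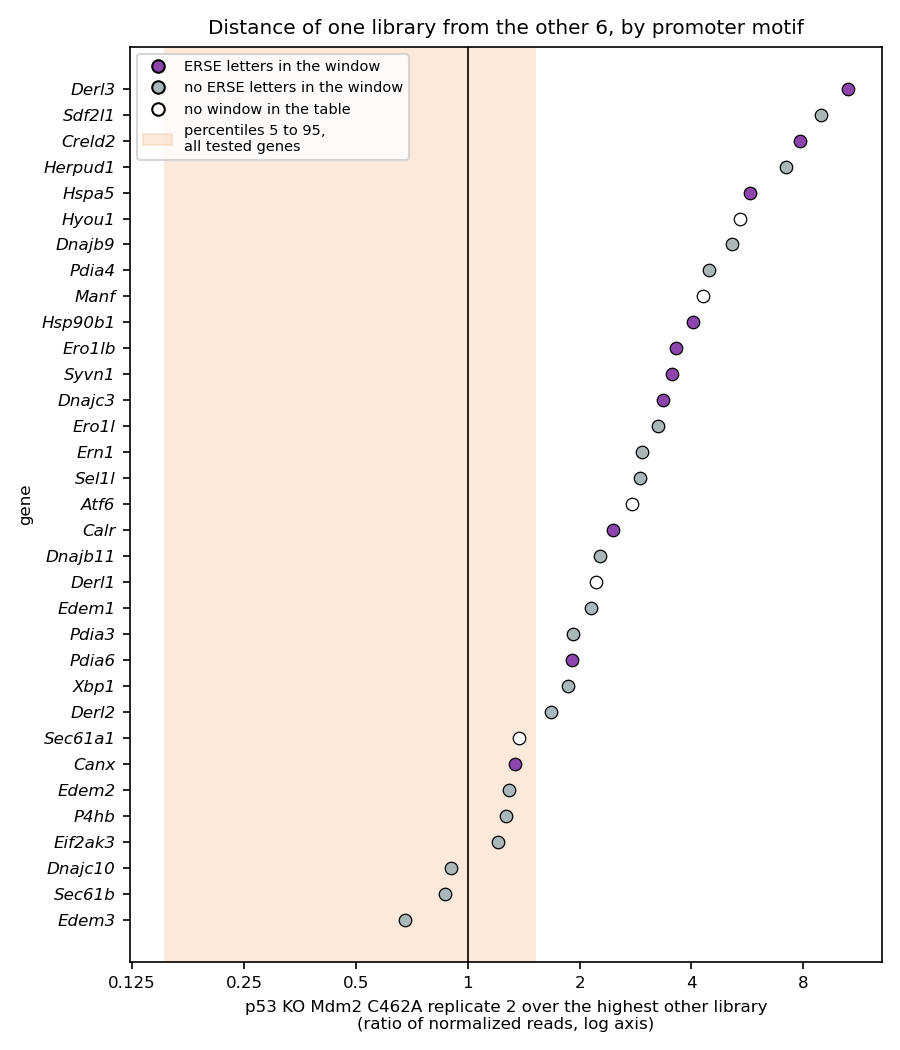
Ratio of normalized reads in p53 KO Mdm2 C462A replicate 2 to the highest of the other 6 libraries (log axis) for the 33 genes, filled by whether the ERSE letters stand in the promoter window; the shaded band spans percentiles 5 to 95 of all tested genes, 0.153 to 1.53. Of the 33 genes, 25 lie above 1.5. Members with ERSE letters run from 1.34 (Canx) to 10.5 (Derl3), and those with a window but without the letters from 0.679 (Edem3) to 8.91 (Sdf2l1).

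The sensors differed from each other. Atf6 had 3925 and 12892 normalized reads in Mdm2 C462A MEFs, 4664 and 4242 in p53/Mdm2 KO MEFs, against 1719, 4218 and 3867 in p53 KO MEFs. Mdm2 C462A replicate 2 was the highest, and p53 KO replicate 1 was the lowest, at 0.425 of the mean of p53 KO replicates 2 and 3. The difference between Mdm2 C462A and p53 KO was 1.22 (SE 0.582, limma adjusted p = 0.531), 0.37 without Mdm2 C462A replicate 2 and 0.81 without p53 KO replicate 1. Between p53/Mdm2 KO and p53 KO it was 0.55, and 0.14 without p53 KO replicate 1.

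Ern1, the gene of Ire1, had 616 and 2347 normalized reads in Mdm2 C462A MEFs, 680.1 and 618 in p53/Mdm2 KO MEFs, against 512, 799 and 678 in p53 KO MEFs. Only Mdm2 C462A replicate 2 left the range of the p53 KO libraries, and the difference from p53 KO was 0.87 (SE 0.533, limma adjusted p = 0.622), which turned to -0.08 without that library. Xbp1 had 2992 and 7088 in Mdm2 C462A MEFs, 3819 and 2858 in p53/Mdm2 KO MEFs, against 2250, 3587 and 3331 in p53 KO MEFs, with the groups overlapping. Gene totals hold spliced and unspliced Xbp1 mRNA together, so splicing by Ire1 was not measured here.

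Eif2ak3, the gene of Perk, showed a small lead of Mdm2 C462A replicate 2. It had 1764 and 2483 normalized reads in Mdm2 C462A MEFs, 1562 and 1164 in p53/Mdm2 KO MEFs, against 1958, 1585 and 2063 in p53 KO MEFs. Both Mdm2 C462A libraries lay above both p53/Mdm2 KO libraries, which lay below all 3 p53 KO libraries. The difference between Mdm2 C462A and p53/Mdm2 KO was 0.63 (SE 0.260, limma unadjusted p = 0.0495, adjusted p = 1.00), the smallest p of any member in that comparison. It was 0.38 without Mdm2 C462A replicate 2. This gene and Dnajc3 and Sec61b were the 3 of 33 members whose p53/Mdm2 KO libraries all lay below p53 KO, against 9.2% of genes tested.

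**Figure D3:**
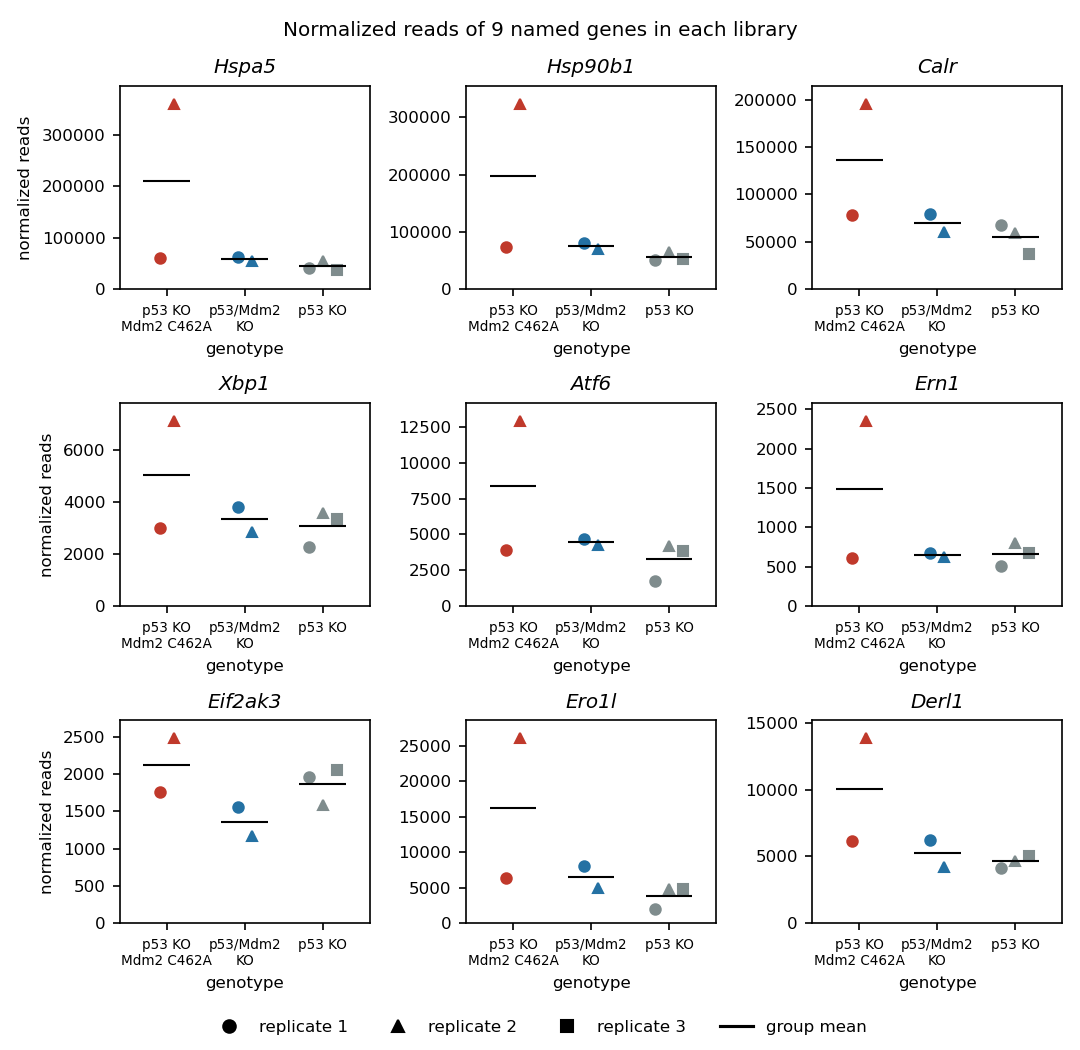
Normalized reads (linear axes from 0) of 9 genes in each library by genotype; symbols give the replicate and black lines the group mean. Mdm2 C462A replicate 2 is the highest library in all 9 panels, with 358998 normalized reads of Hspa5, and its lead is smallest for Eif2ak3, at 1.20 times the highest other library.

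Lectin chaperones hold glycoproteins until they fold. Calr, which encodes calreticulin, had 78393 and 194839 normalized reads in Mdm2 C462A MEFs, 79328 and 60401 in p53/Mdm2 KO MEFs, and 67299, 59560.1 and 36639.6 in p53 KO MEFs. Both Mdm2 C462A libraries exceeded all 3 p53 KO libraries, but p53/Mdm2 KO replicate 1 exceeded Mdm2 C462A replicate 1. The difference between Mdm2 C462A and p53 KO was 1.23 (SE 0.474, limma unadjusted p = 0.0388, adjusted p = 0.461), and 0.57 without Mdm2 C462A replicate 2. Canx, which encodes the membrane-bound calnexin, reached only 1.34 times the highest other library in Mdm2 C462A replicate 2. It had 22310 normalized reads in p53 KO replicate 1, against 38940 and 34475 in p53 KO replicates 2 and 3.

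Genes of disulfide formation differed in how far they departed. Ero1l, the gene of the oxidase Ero1-alpha, had 6366 and 26011 normalized reads in Mdm2 C462A MEFs, 7993 and 4907 in p53/Mdm2 KO MEFs, against 1916, 4786 and 4836 in p53 KO MEFs. All 4 libraries of both Mdm2 genotypes lay above all 3 p53 KO libraries, p53/Mdm2 KO replicate 2 by a small margin, and p53 KO replicate 1 was the lowest of the 7. The difference between Mdm2 C462A and p53 KO was 1.86 (SE 0.683, limma unadjusted p = 0.0325, adjusted p = 0.452), 0.84 without Mdm2 C462A replicate 2 and 1.42 without p53 KO replicate 1. Between p53/Mdm2 KO and p53 KO it was 0.82 (SE 0.683, limma adjusted p = 1.00), and 0.38 without p53 KO replicate 1. Ero1l is also a known target of the hypoxia factor Hif1.

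Ero1lb, its paralog, had 1681 normalized reads in Mdm2 C462A replicate 2, against 296 to 462.2 in the other 6 libraries. Pdia4, a disulfide isomerase of the BiP complex, had 87528 against 13119 to 19605. Pdia3, the isomerase that works with calnexin and calreticulin, and Pdia6, which works with BiP, lay 1.92-fold and 1.91-fold above the highest other library. P4hb, the main disulfide isomerase and a subunit of collagen prolyl hydroxylase, lay at 1.27. Of the 6 genes of this class, 3 exceeded 2-fold.

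Components of ER-associated degradation, which extract misfolded proteins to the cytosol, included the members with the largest and the smallest of these ratios, Derl3 and Edem3. Herpud1, which organises the ligase complex, had 3453 and 33463 normalized reads in Mdm2 C462A MEFs, 4644 and 2086 in p53/Mdm2 KO MEFs, against 2243, 2702 and 2632 in p53 KO MEFs. Both Mdm2 C462A libraries lay above all 3 p53 KO libraries, while the p53/Mdm2 KO libraries lay on either side of them. Syvn1, the gene of the ubiquitin ligase Hrd1, and its partner gene Sel1l lay 3.56-fold and 2.91-fold above the highest other library in Mdm2 C462A replicate 2. Derl1, a channel component, had 6179 and 13829 normalized reads in Mdm2 C462A MEFs, 6238 and 4182 in p53/Mdm2 KO MEFs, against 4121, 4672 and 5047 in p53 KO MEFs. Its Mdm2 C462A libraries lay above all p53 KO libraries (difference 1.00, SE 0.364, limma unadjusted p = 0.0305, adjusted p = 0.452), by 0.42 without replicate 2.

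Derl3, a relative of Derl1 typical of secretory cells, was close to silent elsewhere. It had 1031 whole reads in Mdm2 C462A replicate 2 and 16 in replicate 1, 10 and 5 in p53/Mdm2 KO MEFs, against 8, 8 and 80 in p53 KO MEFs. The second highest library, p53 KO replicate 3, also had the most normalized reads summed over 8 blood and macrophage markers (1432, against 416 to 780 in the other 6 libraries), and the part of such cells in the Derl3 reads of that library was not tested. Of the 8 markers, Emr1, Laptm5 and Tyrobp were at 0 in Mdm2 C462A replicate 2, as they were in p53/Mdm2 KO replicate 2 and p53 KO replicate 1. The other 5 had 1.76 (Ptprc) to 243 (Itgam) normalized reads in Mdm2 C462A replicate 2, with Cd14 at 101, Cd68 at 57.3 and Csf1r at 13.2. The mannosidase-like genes Edem1, Edem2 and Edem3, which mark glycoproteins for degradation, lay at 2.14, 1.29 and 0.679 of the highest other library, and Derl2 at 1.67.

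The translocon genes Sec61a1 and Sec61b, through which proteins enter the ER, lay at 1.37 and 0.870 of the highest other library in Mdm2 C462A replicate 2. Sec61b was highest in p53 KO replicate 1, with 2956 normalized reads against 2612 and 2542 in p53 KO replicates 2 and 3. Thus 3 of 33 members, Dnajc10, Edem3 and Sec61b, were not at their highest in the library that led the others.

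Per kilobase of annotated exon, the order of the members also differed between libraries. In p53 KO the highest mean levels were those of P4hb (20266 normalized reads per kilobase), Calr (18923), Pdia3 (15099), Hsp90b1 (13827) and Hspa5 (10555). The mean of Calr already lay above that of P4hb in p53/Mdm2 KO (24259 against 19704 per kilobase). In Mdm2 C462A replicate 2 the highest were Hspa5 (84889.6 per kilobase), Hsp90b1 (80004) and Calr (67652), ahead of Pdia3 (39733) and Pdia4 (36485), and P4hb stood at 29113. Exon lengths came from another annotation than the authors', so these levels are approximate.

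Set over all members, p53 KO Mdm2 C462A was above p53 KO for 31 of 33, against 51.2% of genes tested, with a median difference of 1.00 against 0.01 over all genes tested. Both Mdm2 C462A libraries lay above every p53 KO library for 12 of 33 members, against 14.1% of genes tested: Calr, Canx, Derl1, Derl2, Edem2, Ero1l, Herpud1, Hsp90b1, Hspa5, Pdia3, Pdia6 and Syvn1. Replicate 2 was the highest library for 30 of 33 members, against 21.2% of genes tested, so for the members this rule rests largely on replicate 1. The 2 shares are therefore not alike, and agreement between the replicates cannot be read from them. Without replicate 2 the count higher was 19 of 33, against 49.8% of genes tested, the median difference was 0.14, and 0 members had an unadjusted p under 0.05, against 3.78% of genes tested. With replicate 2 as the only Mdm2 C462A library the median difference was 1.88. That value describes 1 library and not the genotype, since Hspa5 alone differed 6.01-fold between the Mdm2 C462A replicates.

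Against p53/Mdm2 KO, Mdm2 C462A was higher for 32 of 33 members, against 51.7% of genes tested, with a median difference of 0.85 against 0.01 over all genes. Without Mdm2 C462A replicate 2 the median was 0.02 and 19 of 33 were higher, against 51.6% of genes tested. The libraries of both groups did not overlap, with Mdm2 C462A above, for 4 of 33 members, against 15.8% of genes tested: Canx, Derl3, Eif2ak3 and Sel1l. In the remaining comparison p53/Mdm2 KO was above p53 KO for 23 of 33, against 48.2% of genes tested, with a median difference of 0.09. That count was 13 of 33, against 49.0% of genes tested, and the median -0.03, without p53/Mdm2 KO replicate 1. These comparisons share libraries, so their values are not independent.

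p53 KO replicate 1 held low and high members. It was the lowest of the 7 libraries for 16 of 33 members, against 26.4% of genes tested. Atf6 and Ero1l lay more than 2-fold below every other library there, which is 2 of 33 members, against 7.7% of genes tested. Sel1l and Edem1 were at 0.537 and 0.523 of the mean of p53 KO replicates 2 and 3, and Canx at 0.608. Above that mean were Creld2 at 1.51, Calr at 1.40, Edem2 at 1.34, Dnajb11 at 1.32 and Manf at 1.30, and the median level of the members there was -0.13.

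Other parts of the secretory pathway lay closer to the p53 KO mean than the members in Mdm2 C462A replicate 2. List levels are the median difference of the tested genes from the p53 KO mean. They were 1.88 for the members in that library, against 0.31 for 21 other translocation and signal peptidase genes, 0.25 for 14 genes of glycosylation and glucose trimming, 0.17 for 17 other degradation genes, -0.07 for 19 other folding enzymes and -0.02 for 21 genes of transport to the Golgi. Of these 5 lists, 0 genes exceeded the highest other library more than 2-fold, against 2.75% of genes tested. Mdm2 C462A replicate 2 was still the highest library for 13 of 21 translocation, 8 of 14 glycosylation and 6 of 17 other degradation genes. It was the highest for 5 of 19 other folding enzymes and 5 of 21 Golgi transport genes, against 21.2% of genes tested. Among 8 genes of sensor processing and related membrane-bound factors the level was 0.38, and 1 gene, named because it was the single one, exceeded 2-fold: Wfs1, an ER membrane protein gene induced by ER stress, with 5164 normalized reads in Mdm2 C462A replicate 2, 1408 in replicate 1, 1459 and 1334 in p53/Mdm2 KO MEFs, against 1049, 1792 and 1609 in p53 KO MEFs.

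In the comparison of Mdm2 C462A with p53 KO, 0 of the genes in these 6 lists passed the adjusted test, and the lists split in direction. Over all genes tested, 51.2% were higher in that comparison. At an unadjusted p under 0.05 stood 10.4% of them in either direction and 4.98% on the higher side. Translocation genes were higher for 17 of 21 (median 0.16), with the signal peptidase genes Sec11c (difference 0.78) and Spcs2 (0.73) at an unadjusted p under 0.05. Other degradation genes were higher for 12 of 17 (median 0.10), with Selk (0.78) and Ubxn4 (0.39) at that threshold. Glycosylation genes were higher for 11 of 14 (median 0.15), and 0 reached it. The sensor processing list was higher for 5 of 8 (median 0.13). Other folding enzymes were lower for 10 of 19 (median -0.03), among them the sulfhydryl oxidase gene Qsox1 (-1.01) and the collagen chaperone gene Fkbp10 (-0.72). Golgi transport genes were lower for 15 of 21 (median -0.13), with the coat genes Sec13 (-0.47) and Sec24b (-0.43) at an unadjusted p under 0.05. In p53/Mdm2 KO against p53 KO, 17 of 21 Golgi transport genes were lower, with Sec24d (-0.41) and Sec16a (-0.45) at that threshold. Of all genes tested, 48.2% were higher in this comparison, and 3.0% were at that threshold in either direction. Without Mdm2 C462A replicate 2, 0 genes of the 6 lists reached that threshold in the comparison with p53 KO. Translocation genes were then higher for 11 of 21, other degradation genes for 8 of 17, glycosylation genes for 9 of 14 and the sensor processing list for 2 of 8, while Golgi transport genes were lower for 19 of 21 and other folding enzymes for 12 of 19. The share of all genes tested that was higher without that library was 49.8%, near the counts of the translocation and other degradation genes.

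Genes of the Perk and Atf4 branch govern amino acid supply and the later stress response. The 14 listed had a level of 0.91 in Mdm2 C462A replicate 1 and 1.91 in replicate 2, 1.04 and -0.06 in p53/Mdm2 KO MEFs, and -0.55, 0.42 and 0.08 in p53 KO MEFs. The members' level was 0.14 and 1.88 in Mdm2 C462A MEFs, 0.20 and -0.03 in p53/Mdm2 KO MEFs, and -0.13, 0.06 and 0.13 in p53 KO MEFs. In Mdm2 C462A replicate 1 and p53/Mdm2 KO replicate 1 the Atf4 branch thus stood near 1 while the members stood near 0, and only in Mdm2 C462A replicate 2 were both high. The p53 KO mean used here includes replicate 1, at -0.55 for the branch. The levels of 0.91 and 1.04 stood less far above p53 KO replicates 2 and 3 (0.42 and 0.08). Mdm2 C462A replicate 2 was the highest library for 13 of 14 genes of the branch, against 21.2% of genes tested. It exceeded the highest other library more than 2-fold for 6 of 14, against 2.75% of genes tested. For Mdm2 C462A against p53 KO, 14 of 14 genes of the branch were higher, against 51.2% of genes tested, with a median difference of 1.5002. Of these, 8 had an unadjusted p under 0.05, against 4.98% on the higher side, and 0 passed the adjusted test. Without Mdm2 C462A replicate 2 the count higher was 13 of 14, against 49.8% of genes tested, and the median was 0.91. Ddit3, the stress factor Chop, had 3686 and 21317 normalized reads in Mdm2 C462A MEFs, 3329 and 1529.6 in p53/Mdm2 KO MEFs, and 1052, 1741 and 1348 in p53 KO MEFs. Its difference between Mdm2 C462A and p53 KO was 2.70 (SE 0.738, limma adjusted p = 0.437), and 1.43 without Mdm2 C462A replicate 2. Atf3, another stress-induced factor, had 289 and 3680.5 normalized reads in Mdm2 C462A MEFs, 426 and 221 in p53/Mdm2 KO MEFs, and 98.2, 163 and 89.5 in p53 KO MEFs.

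**Figure D4:**
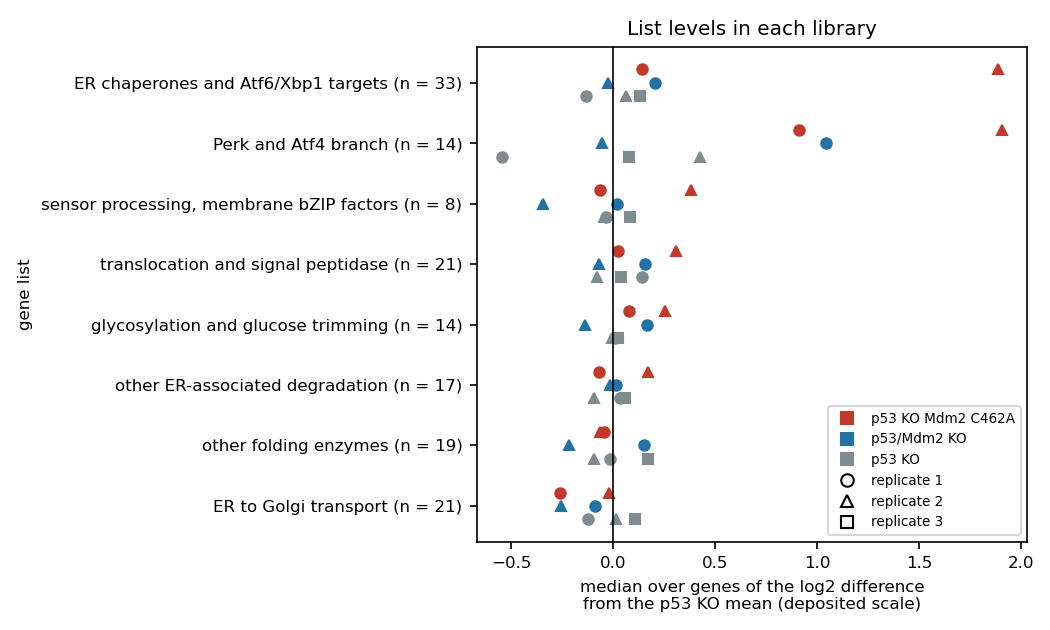
Median log2 difference from the p53 KO mean (deposited scale) of 8 gene lists in each library; colours give the genotype, symbols the replicate, and n is the number of genes tested. Mdm2 C462A replicate 2 stands at 1.88 for the members and 1.91 for the Perk and Atf4 branch, whereas for the other lists it lies between -0.07 and 0.38.

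Markers of fibroblasts and of other cell types also varied between libraries. The 10 fibroblast markers summed to 1445682 and 995136 normalized reads in Mdm2 C462A MEFs, 1392142 and 914190.1 in p53/Mdm2 KO MEFs, against 965947, 1677414 and 2099523 in p53 KO MEFs. Blood and macrophage markers summed to 725 and 416 in Mdm2 C462A MEFs, 780.3 and 456 in p53/Mdm2 KO MEFs, against 532, 462.2 and 1432 in p53 KO MEFs. Epithelial markers summed to 224 and 744 in Mdm2 C462A MEFs, 1267 and 94.0 in p53/Mdm2 KO MEFs, against 596, 323 and 251 in p53 KO MEFs. Endothelial markers summed to 467 and 612 in Mdm2 C462A MEFs, 868 and 1083 in p53/Mdm2 KO MEFs, against 88.2, 601 and 613 in p53 KO MEFs, and neural markers ran from 1395 to 13054 over the 7 libraries. The muscle gene Des had 2388 normalized reads in Mdm2 C462A replicate 2 and 194 in replicate 1, against 139 to 1839 in the other 5 libraries, while Myod1 reached at most 0.928 normalized reads in any library. The part of these differences in the members' levels was not tested.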

How the data were processed

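Single reads of 50 bp from TruSeq libraries of total RNA were sequenced, per the labels' protocols. The submitters' processing notes name the mouse build mm9 and, without roles, DESeq 1.14.0, CASAVA 1.8.2 and Bowtie2 2.1.0. How reads were assigned to genes, and whether strand was used, is not stated in these sources. The values deposited by the authors are log2 values after a variance-stabilizing transformation, in which a gene without reads is 3.36. Inverting it gave normalized reads, and 1 step per library gave whole reads (100% of values within 0.05 of a whole number). Exons of members overlap those of any single other gene by up to 10.3% of their length (Hsp90b1), and such reads cannot be told apart. Overlaps of a member with several genes were not combined.

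Limma 3.58.1 (R 4.3.3) was fitted to the deposited log2 values of all 7 libraries with group means and a mean-variance trend, for genes with a mean of at least 10 normalized reads, and p-values were two-sided with Benjamini-Hochberg adjustment. The fit was tested on simulated data, which held independent noise and no outlying library, so that case was not tested. The naming rule covered the sensors, Xbp1, Hspa5, Hsp90b1 and each member with an unadjusted p under 0.05, with values by library, and up to 2 genes of each other list with the smallest p if under 0.05; Herpud1, Derl3 and others were added after their values were seen. Members and lists were chosen with earlier results of these data known. Count models were not used because the deposited values are not counts; limma's voom on recovered reads was an alternative. Exon lengths are from GENCODE M21 (GRCm38) and promoter windows from RefSeq, without chromosome 18.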

Additional observations from a re-analysis of the deposited data

How the results depend on the processing

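Differences are log2, and leave-one-out fits with a single library in a group assume that it varies like the others. For Mdm2 C462A against p53 KO, the 5 members at an unadjusted p under 0.05 (10.4% of all genes tested) became 12 with scaling by library totals (10.4%), 10 with no filter (9.19%), 13 with sample weights (13.7%), 3 with a replicate block (8.79%) and 0 without both libraries that stand apart (7.40%); the count higher was then 19 and the median 0.11. Leaving out each library gave 0 to 25 members at that threshold, 19 to 32 higher and medians of 0.14 to 1.88. Against p53/Mdm2 KO, the single member became 0 with median centring, a pseudocount of 1, no trend, the replicate block, sample weights and voom, and without both libraries that stand apart, where the count higher was 19 and the median 0.0234. Leaving out each library gave 0 to 26, 19 to 33 higher and medians of 0.0234 to 1.53. For p53/Mdm2 KO against p53 KO, 1 gene, not a member, was called without both libraries; leaving out each gave 0 to 1 members at the threshold, 13 to 28 higher and medians of -0.0293 to 0.202. The lowest adjusted p of a named member over all alternatives was 0.128. Cause of these shifts was not tested, beyond the libraries left out.

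Without both libraries, differences reversed against p53 KO for Atf6 (-0.0410), Eif2ak3 (-0.0356), Ern1 (-0.25) and Xbp1 (-0.21) in Mdm2 C462A and Xbp1 (-0.0647) in p53/Mdm2 KO, and against p53/Mdm2 KO for Atf6 (-0.18), Ern1 (-0.0705), Hsp90b1 (-0.00759) and Xbp1 (-0.14). Ern1 in p53/Mdm2 KO against p53 KO reversed to 0.0334 with median centring, 0.0367 with library totals and 0.0182 with the replicate block, and Xbp1 to -0.0456 with sample weights. Leaving out each library spanned, for Mdm2 C462A against p53 KO, -0.0733 to 0.41 for Eif2ak3, -0.0796 to 1.81 for Ern1 and -0.00188 to 1.24 for Xbp1; for Mdm2 C462A against p53/Mdm2 KO, -0.18 to 1.53 for Atf6, -0.0705 to 1.82 for Ern1, -0.00759 to 2.12 for Hsp90b1 and -0.14 to 1.096 for Xbp1; and for p53/Mdm2 KO against p53 KO, -0.14 to 0.44 for Derl1, -0.18 to 0.13 for Ern1 and -0.0674 to 0.35 for Xbp1. For same-numbered libraries, correlations of their deviations from the group means ran from -0.16 to 0.20 over genes. In a group of 2 libraries the deviations mirror each other, so these values cannot tell whether same-numbered libraries were paired.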

Other observations

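Outside the 33 members, 11 tested genes had the ERSE letters in their promoter window, and 5 of them stood more than 2-fold above every other library in p53 KO Mdm2 C462A replicate 2. The other 6 lay at 1.01 (Acacb), 0.984 (Hnrnpa3), 0.750 (Pan2), 0.670 (Adcy3), 0.582 (Gpr44) and 0.377 (Spats2l) of the highest other library. The 5 genes were noticed after the values were seen, and the windows matched only 66.6% of tested genes, so no share is drawn from them. Zfp57, which encodes a zinc finger protein that guards imprinted methylation, had 5720.5 normalized reads there and 1833 in the other library of that genotype, 2137 and 1985 in p53/Mdm2 KO MEFs, against 917, 1742 and 1792 in p53 KO MEFs. Alg12, a mannosyltransferase gene of N-glycan assembly, had 1353 there and 523 in the other library of that genotype, 548 and 379 in p53/Mdm2 KO MEFs, against 474, 426 and 404 in p53 KO MEFs. Xlr3a, Xlr3b and Xlr3c also lay between 4.81-fold and 5.42-fold above the highest other library, but they are near-identical copies whose reads cannot be told apart with certainty.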
